A study of Homo sapiens with 6 samples.

Results

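The genes described here are 43 genes of the unfolded protein response and of the machinery that folds, modifies and exports secretory proteins, among them genes for the folding and modification of collagen. They were taken by symbol from the table of raw counts, all 43 symbols were found among its 60663 rows, and all 43 were among the 16920 genes with enough counts to be tested. The genes were measured by RNA-sequencing of ribosomal RNA-depleted total RNA in CCD18Co cells, a line of fibroblasts from normal human colon. The cells were transfected for 6 h with a commercial pool of siRNAs against *LTBP2* (siLTBP2, 3 libraries) or with a non-target pool (siNT, 3 libraries), and were frozen 48 h after transfection. *LTBP2* codes for latent transforming growth factor beta binding protein 2, a secreted protein of the extracellular matrix. All libraries came from 1 cell line and 1 pool against the target, so that an effect of the pool on other transcripts cannot be told apart from an effect of less *LTBP2*. Nothing in the labels says that the replicates were separate cultures, and the p-values measure the spread between these libraries, which may be technical.

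Secretory proteins such as collagens are folded in the endoplasmic reticulum (ER). When unfolded proteins build up there, the sensors IRE1 (gene *ERN1*), PERK (*EIF2AK3*) and ATF6 are activated. IRE1 splices *XBP1* mRNA into the form that codes for an active transcription factor, PERK slows translation in general while favouring that of *ATF4*, and ATF6 is cut to release a transcription factor. XBP1 and ATF6 raise the transcription of chaperones and of the genes that degrade misfolded proteins, and ATF4 that of genes for amino acid supply and, through CHOP (*DDIT3*), of genes linked to cell death. Fibroblasts make large amounts of collagen, whose chains need dedicated chaperones, prolyl and lysyl hydroxylases and large transport carriers. Gene counts do not separate spliced from unspliced *XBP1*, and say nothing of the translation of *ATF4* or of the cleavage of ATF6.

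The best known letters of this response in promoters are the ER stress response element (ERSE), CCAAT and CCACG with 9 bases between them, and ERSE-II, ATTGG and CCACG with 1 base between them. Both were searched on both strands in RefSeq promoters (GRCh38.p14) from 250 bases before to 50 bases after each start. A promoter was found for 39 of the 43 genes, and not for *FKBP10*, *FKBP14*, *PDIA3* and *SEC24D*. The 39 genes had 51 of the 35116 promoters. ERSE stood in 7 of the 39 genes (17.9%) and in 25 of all 27305 genes with a promoter (0.0916%), and ERSE-II in 3 of the 39 (7.69%) and in 19 of all genes (0.0696%). Of single promoters, 0.0769% held ERSE and 0.0541% ERSE-II. These genes were listed as targets of the response, so these shares describe the list and were not tested. The windows are shown because they mark the genes whose promoters carry the element itself. They are written 5′ to 3′ on the strand of the gene, with the element and the bases between its parts in capitals. An element that begins with CGTGG lies on the other strand.
HSPA5, ERSE, chr9:125241376-125241424, minus strand: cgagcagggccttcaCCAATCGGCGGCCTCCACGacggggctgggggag
XBP1, ERSE, chr22:28800588-28800636, minus strand: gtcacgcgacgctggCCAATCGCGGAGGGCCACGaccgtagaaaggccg
CANX, ERSE, chr5:179698763-179698811, plus strand: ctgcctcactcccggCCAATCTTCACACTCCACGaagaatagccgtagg
PDIA6, ERSE, chr2:10812838-10812886, minus strand: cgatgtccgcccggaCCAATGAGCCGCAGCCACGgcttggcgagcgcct
HSP90B1, ERSE, chr12:103930201-103930249, plus strand: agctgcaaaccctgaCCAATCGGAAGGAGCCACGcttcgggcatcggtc
HSP90B1, ERSE, chr12:103930306-103930354, plus strand: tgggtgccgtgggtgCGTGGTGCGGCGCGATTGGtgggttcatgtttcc
CALR, ERSE, chr19:12938369-12938417, plus strand: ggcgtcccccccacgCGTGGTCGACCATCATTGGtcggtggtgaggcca
CRELD2, ERSE, chr22:49918539-49918587, plus strand: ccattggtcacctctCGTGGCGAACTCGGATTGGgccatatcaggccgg
HYOU1, ERSE-II, chr11:119057259-119057299, minus strand: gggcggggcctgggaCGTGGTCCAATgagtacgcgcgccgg
HYOU1, ERSE-II, chr11:119057365-119057405, minus strand: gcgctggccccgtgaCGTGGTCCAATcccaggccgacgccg
HERPUD1, ERSE-II, chr16:56932010-56932050, plus strand: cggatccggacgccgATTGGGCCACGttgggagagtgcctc
SDF2L1, ERSE-II, chr22:21642099-21642139, plus strand: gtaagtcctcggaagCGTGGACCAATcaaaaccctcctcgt

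The other elements searched were the ATF6 and XBP1 element UPRE, TGACGTGG, and the element bound by ATF4 with C/EBP factors (CARE), TGATGNAA. UPRE was found in *HYOU1*, where it overlaps the distal ERSE-II, and in *SEC23A*, against 0.927% of all genes with a promoter. CARE was found in *CHAC1*, *ASNS* and *HERPUD1* (7.69% of the 39 genes), against 4.46% of all genes with a promoter. Of single promoters, 0.729% held UPRE and 3.62% CARE. The windows of *CHAC1*, which rose, and of *ASNS*, which did not pass the test, hold these matches in capitals.
CHAC1, CARE, chr15:40953247-40953284, plus strand: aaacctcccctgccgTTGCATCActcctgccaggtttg
ASNS, CARE, chr7:97872454-97872491, minus strand: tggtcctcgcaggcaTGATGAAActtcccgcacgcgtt

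The libraries held 44663424 to 53576899 counts. Levels are given in CPM, the counts of a gene relative to the TMM-scaled total of its library. The targeted gene *LTBP2* stood at 25.0, 23.1 and 21.2 CPM in the siNT libraries and at 6.49, 8.61 and 6.00 CPM in the siLTBP2 libraries, a log2 fold change of -1.72 (SE 0.15, adjusted p = 6.6e-05, edgeR's quasi-likelihood test). Of the fibroblast markers, all 10 were detected, and the lowest libraries had 1475 CPM of *COL1A1* and 4524 CPM of *VIM*. Their levels also moved, as *PDGFRB* fell (log2 fold change -0.60, SE 0.10, adjusted p = 0.0025). In a fit with the replicate number as a block, described below, all 10 were called, 4 higher and 6 lower. The blocked fit called 36.2% of all genes, and its pairing by replicate number is borderline. Of the epithelial, endothelial, leukocyte and muscle markers, *EPCAM*, *CDH1*, *KRT20*, *CDH5*, *PECAM1*, *KDR*, *PTPRC*, *CD3E*, *DES* and *MYH11* stayed under 1 CPM in every library. The epithelial markers *KRT8* (9.23 to 13.4 CPM), *CLDN4* (1.38 to 4.06 CPM) and *KRT18* were detected in every library. With the replicate block, 2 of the 3 tested epithelial markers were called, *KRT8* (log2 fold change 0.32, adjusted p = 0.011) and *KRT18*, each higher, as were 18.4% of all genes. Of the 5 endothelial markers, *TEK* (59.1 to 81.5 CPM) and *VWF* (0.702 to 1.84 CPM) were detected, and the summed level was 67.4 to 83.6 CPM in siNT and 59.9 to 74.3 CPM in siLTBP2. The summed epithelial markers were nevertheless higher in siLTBP2 (87.3 to 101 CPM, against 41.7 to 56.6), which came mostly from *KRT18*, and so were the summed smooth muscle markers (382 to 422 CPM, against 219 to 246), which came from *SMTN* and *ACTG2*. The part of these markers in the results was not tested. In a bulk sample, fewer cells of a type and less RNA per cell cannot be told apart.

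After siLTBP2, 10 of the 43 genes passed an adjusted p of 0.05 (23.3%), against 19.3% of all genes tested. *PLOD2*, *ERN1*, *CHAC1*, *MANF*, *EDEM1* and *CANX* rose (6 genes, 14%, against 9.76% of all genes), and *CREB3L1*, *XBP1*, *FKBP10* and *FKBP14* fell (4 genes, 9.30%, against 9.51% of all genes). These shares lie near those of all genes. By the likelihood ratio test, which the study used, 15 genes were called (34.9%, against 22.5% of all genes), and by DESeq2 14 (32.6%, against 23.0% of the genes given an adjusted p). Among abundant genes, with a mean of at least 50 CPM, 6 of 29 listed genes were called (20.7%) and 1289 of all 4747 (27.2%). No listed gene met the study's stricter definition of a deregulated gene, an adjusted p below 0.01 with a fold change above 2, against 2.57% of all genes. That count was also 0 by edgeR's likelihood ratio test and by DESeq2. At an unadjusted p of 0.05, 16 of the 43 genes passed (37.2%, against 32.3% of all genes). *CREB3L1* came closest, with a log2 fold change of -0.999 that fell just short of the limit.

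The shifts were small and mostly upwards. The log2 fold change was above 0 in 30 of the 43 genes and its median was 0.14, against -0.01 over all genes. The siLTBP2 libraries lay wholly above the siNT libraries in 13 genes (30.2%, against 18.7% of all genes) and wholly below in 6 (14%, against 18.3%). Among genes with a mean of at least 50 CPM the shares were closer, with 9 of 29 listed genes wholly above (31.0%, against 28.1% of all such genes) and 5 wholly below (17.2%, against 18.1%). A log2 fold change above 0 was found in 69.0% of these 29 genes, against 56.8%, and their median was 0.15, against 0.04. The libraries that carry the same replicate number deviated together from their group means, with correlations across genes of 0.44, 0.19 and 0.57, so that a fit with the replicate number as a block is given beside the results that it changes. With the replicate block, 23 of the 43 genes were called (53.5%, against 36.2% of all genes), 17 higher (against 18.4%) and 6 lower (against 17.9%). The 10 genes named above were all among the 23.

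**Figure D1:**
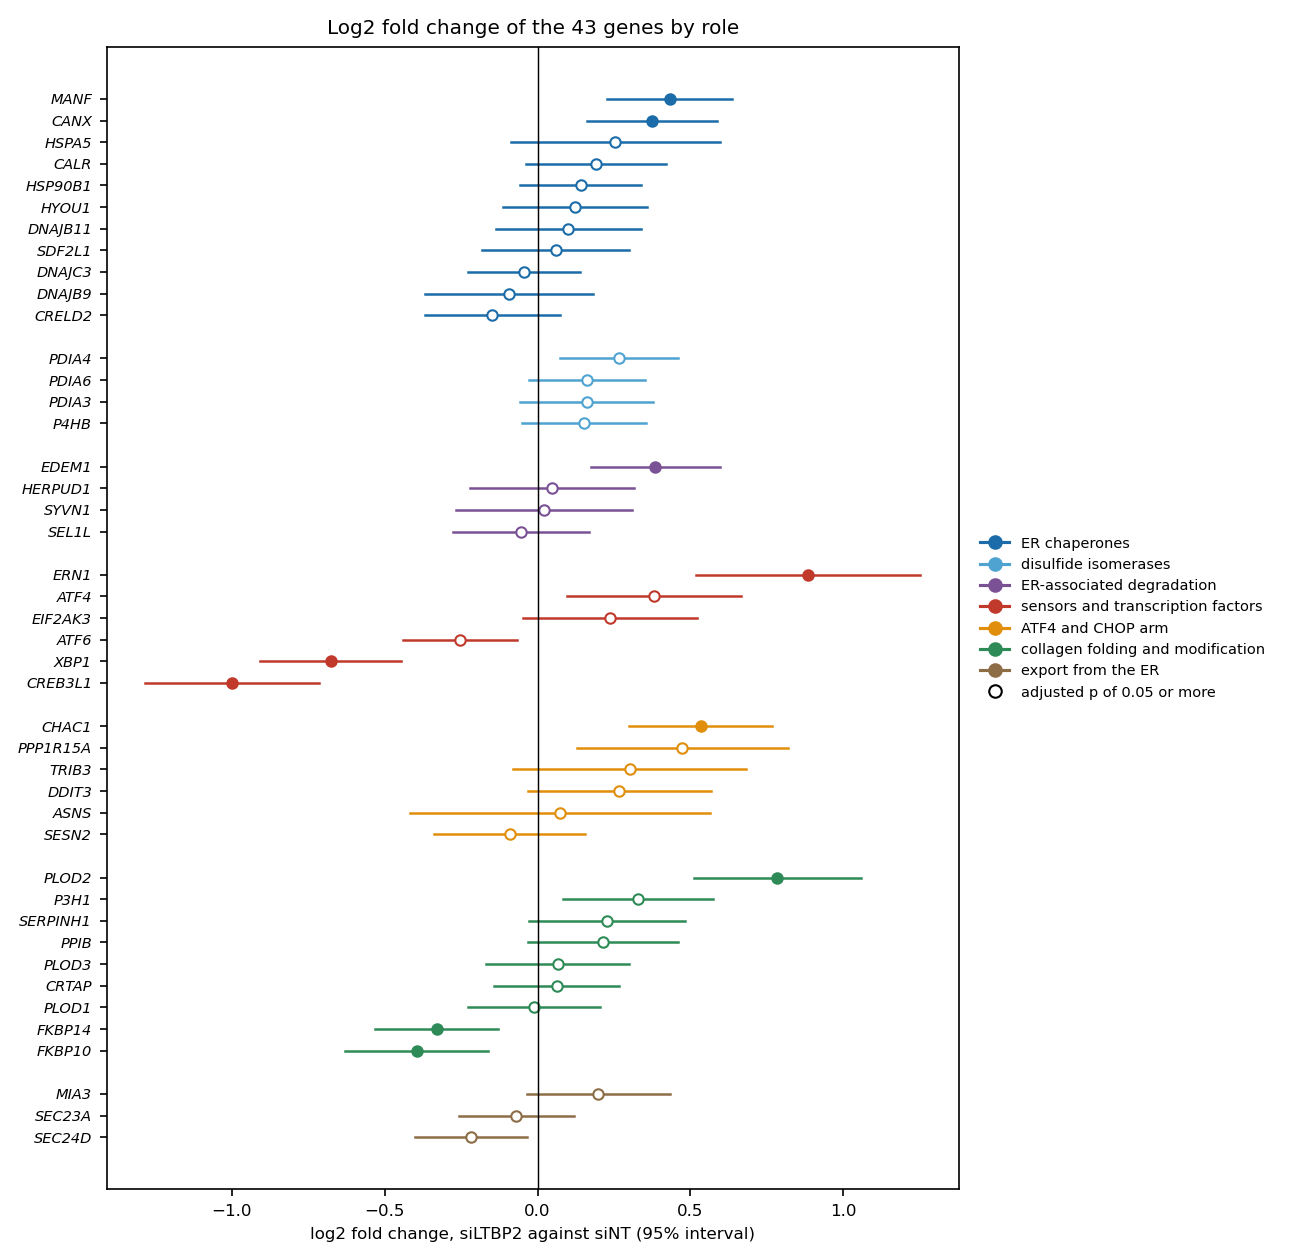
Log2 fold change of siLTBP2 against siNT for the 43 genes, grouped by role, with bars for the 95% interval of the fit without a block, over 3 libraries a group. Filled points passed an adjusted p of 0.05. They run from *CREB3L1* at -0.999 to *ERN1* at 0.88, and 30 of the 43 points lie above 0.

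Among the sensors and transcription factors, the sensor gene *ERN1* rose, while *XBP1*, the transcript that the IRE1 enzyme splices, and *CREB3L1* fell. *ERN1* (ENSG00000178607, chr17:64039080-64130819) was rare, at 7.27, 6.12 and 9.20 CPM in siNT and at 12.7, 12.8 and 16.2 CPM in siLTBP2. Every siLTBP2 library was above every siNT library, for a log2 fold change of 0.88 (SE 0.17, adjusted p = 0.0045). *XBP1* (ENSG00000100219, chr22:28794555-28800597) stood at 61.5, 54.8 and 50.4 CPM in siNT and at 38.1, 34.3 and 32.0 CPM in siLTBP2. The groups did not overlap, and the gene fell to 0.626 of its siNT level (log2 fold change -0.68, SE 0.10, adjusted p = 0.0015). *XBP1* was thus the ERSE gene that moved furthest, and it moved down.

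*CREB3L1* (ENSG00000157613, chr11:46277662-46321409) codes for OASIS, a membrane-bound factor that is released from the ER and drives collagen genes in bone-forming cells. Its levels were 263, 205 and 208 CPM in siNT and 116, 127 and 95.7 CPM in siLTBP2. The siLTBP2 libraries all lay below the lowest siNT library, and the log2 fold change was -0.999 (SE 0.13, adjusted p = 0.00054). It had the lowest adjusted p of the 43 genes. The related gene *CREB3L2*, which is not on the list, rose (log2 fold change 0.32, SE 0.09, adjusted p = 0.026).

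The remaining sensors and *ATF4* did not pass the test. *ATF4*, the factor whose translation PERK favours, was measured at 166, 206 and 236 CPM in siNT and at 234, 273 and 285 CPM in siLTBP2. The lowest siLTBP2 library was just below the highest siNT library, but in each replicate number siLTBP2 was the higher, and the log2 fold change was 0.38 (SE 0.13, adjusted p = 0.063). With the replicate block the same gene was called (adjusted p = 8.3e-05). *ATF6* had lower levels in every siLTBP2 library (89.5, 92.1 and 86.0 CPM, against 115, 99.4 and 105), with a log2 fold change of -0.25 (adjusted p = 0.058, and 0.0065 with the replicate block). *EIF2AK3*, the PERK gene, had overlapping groups and a log2 fold change of 0.24 (adjusted p = 0.24, and 0.033 with the replicate block). All 6 sensors and factors were therefore called in the blocked fit, 3 higher and 3 lower. That fit called 36.2% of all genes, 18.4% higher and 17.9% lower, and its pairing by replicate number is borderline.

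Of the 6 genes of the ATF4 and CHOP arm, 1 rose (16.7%, against 9.76% of all genes). With the replicate block 4 of the 6 were called higher, against 18.4% of all genes. *CHAC1* (ENSG00000128965), a glutathione-degrading enzyme, went from 22.1, 18.0 and 22.3 CPM in siNT to 30.6, 29.6 and 30.2 CPM in siLTBP2. These siLTBP2 values were nearly equal to each other and above all siNT values, and the log2 fold change was 0.53 (SE 0.11, adjusted p = 0.006). *DDIT3*, which codes for CHOP, was low, with 9.06, 7.37 and 9.94 CPM in siNT and 10.6, 10.1 and 11.1 CPM in siLTBP2. Its groups did not overlap, yet its log2 fold change of 0.27 (SE 0.14) did not pass the test (adjusted p = 0.20, and 0.042 with the replicate block). Exons of *MARS1* and *MBD6* on the other strand cover 31.6% of the exon bases of *DDIT3*, and whether reads were counted by strand is unknown here.

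The 4 other genes of this arm had log2 fold changes from -0.09 to 0.47. *PPP1R15A*, the phosphatase subunit that ends the block of translation, had 127, 115 and 158 CPM in siNT and 149, 180 and 227 CPM in siLTBP2 (log2 fold change 0.47, adjusted p = 0.057, and 1.8e-05 with the replicate block). *TRIB3*, a pseudokinase that CHOP induces, had a log2 fold change of 0.30 (adjusted p = 0.26, and 0.0041 with the replicate block). *SESN2*, a leucine sensor of the stress response, had a log2 fold change of -0.09 and *ASNS*, asparagine synthetase, one of 0.07, with adjusted p = 0.63 and 0.86. *ASNS* had only 0.851 to 1.17 CPM, and 49.3% of its exon bases are shared with another annotated gene of the same strand, so its count is uncertain.

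**Figure D2:**
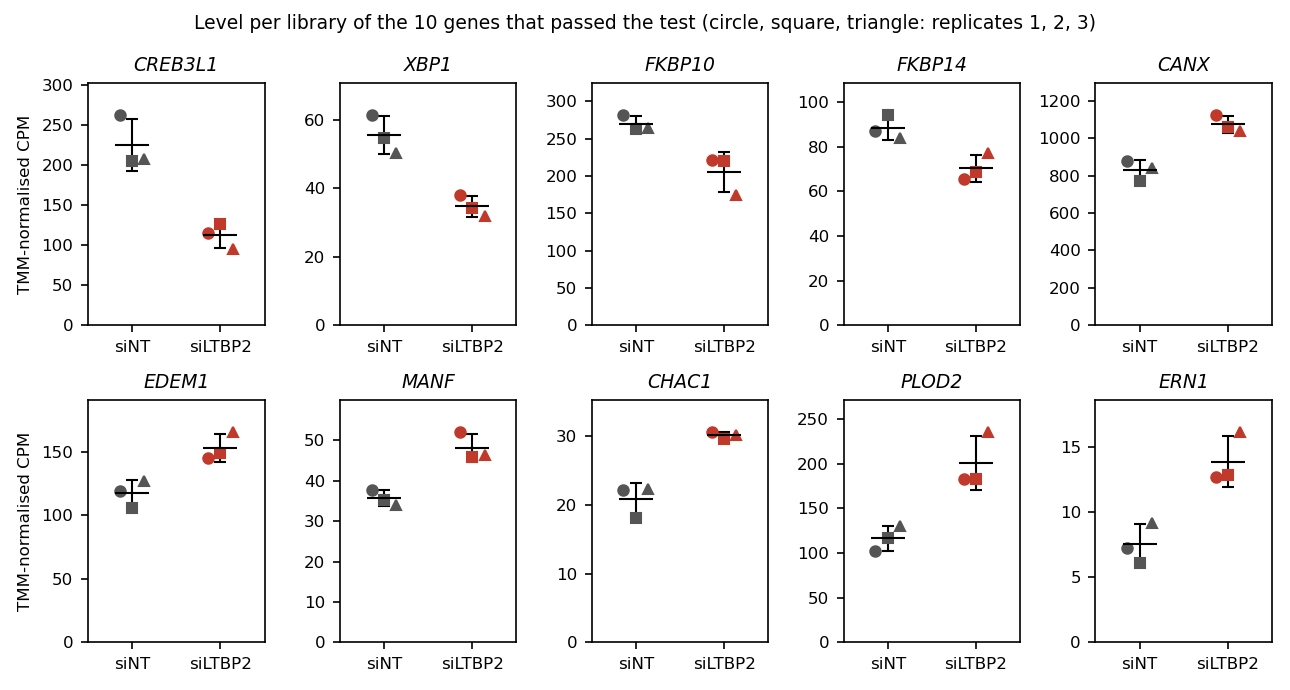
TMM-normalised CPM of the 10 genes that passed an adjusted p of 0.05, in the 3 siNT libraries (grey) and the 3 siLTBP2 libraries (red), from an axis that starts at 0. Bars give the mean and the SD over 3 libraries. In each of the 10 panels the groups do not overlap.

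The ER chaperones ranged widely in level, with siNT means from 12.4 CPM for *SDF2L1* to 1070 CPM for *CALR*. Of the 11, 2 rose (18.2%, against 9.76% of all genes), and 3 were called higher with the replicate block (against 18.4%). *CANX*, calnexin, the membrane-bound lectin that holds newly made glycoproteins, went from 877, 772 and 838 CPM in siNT to 1126, 1058 and 1038 CPM in siLTBP2. All siLTBP2 libraries were above all siNT libraries, a rise of 29.5% (log2 fold change 0.37, SE 0.10, adjusted p = 0.021). *MANF*, a small secreted ER protein that is induced by ER stress, rose from 37.8, 35.2 and 33.9 CPM to 52.1, 45.8 and 46.4 CPM. Its groups did not overlap either, and its log2 fold change was 0.43 (SE 0.09, adjusted p = 0.0085).

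*HSPA5*, the gene of BiP, the chaperone whose release from the sensors accompanies their activation, is the usual readout of the response. It stood at 620, 502 and 429 CPM in siNT and at 724, 617 and 510 CPM in siLTBP2. The siNT libraries spread over a wide range and the groups overlapped, and the log2 fold change of 0.26 (SE 0.15, 95% interval -0.09 to 0.60) did not pass the test (adjusted p = 0.29). Within each replicate number siLTBP2 was higher, and the gene was called with the replicate block (adjusted p = 0.0067). Its interval covers both a small fall and a rise of up to 0.60.

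The other 8 chaperones had log2 fold changes from -0.15 to 0.19 and were called in neither fit. They were *CALR*, the soluble partner of calnexin, *HSP90B1* (GRP94), the nucleotide exchange factor *HYOU1*, the BiP cochaperones *DNAJB9*, *DNAJB11*, *DNAJC3* and *SDF2L1*, and *CRELD2*, an ER stress-induced folding factor. *CALR* had the largest value (0.19, SE 0.10, adjusted p = 0.24) and *CRELD2* the lowest (-0.15, SE 0.10, adjusted p = 0.34). The 4 disulfide isomerases *PDIA3*, *PDIA4*, *PDIA6* and *P4HB*, which form and rearrange disulfide bonds, gave no call, while 1 of them had an unadjusted p under 0.05 and 1 was called by the likelihood ratio test and by DESeq2. In all 4 the siLTBP2 libraries lay above the siNT libraries, as in 28.1% of all genes with a mean of at least 50 CPM. Their log2 fold changes ran from 0.15 to 0.27. *PDIA4* had the largest, from 323, 296 and 332 CPM to 380, 395 and 369 CPM (0.27, SE 0.09, adjusted p = 0.056, and 0.0056 with the replicate block). *PDIA3*, *PDIA6* and *P4HB* were not called with the replicate block either (adjusted p = 0.09, 0.082 and 0.12).

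The genes with the promoter elements shown above did not all move in 1 direction. The 7 ERSE genes had log2 fold changes from -0.68 in *XBP1* to 0.37 in *CANX*, with a median of 0.16. Of these 7, 2 were called, against 19.3% of all genes tested and 4 of all 16 tested genes with ERSE. With the replicate block *HSPA5* was called as well (adjusted p = 0.0067), in a fit that called 36.2% of all genes. The 3 ERSE-II genes had log2 fold changes from 0.05 to 0.12, none was called by any of the 3 tests, and none had an unadjusted p under 0.05.

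In ER-associated degradation, 1 of 4 genes rose (against 9.76% of all genes), and the same number with the replicate block (against 18.4%). *EDEM1*, which helps select misfolded glycoproteins for removal, went from 119, 106 and 127 CPM to 145, 149 and 166 CPM. The groups did not overlap, and the log2 fold change was 0.39 (SE 0.10, adjusted p = 0.017). The ubiquitin ligase gene *SYVN1* (HRD1), its partner *SEL1L* and the ER membrane protein gene *HERPUD1* had log2 fold changes of 0.02, -0.05 and 0.05, with standard errors of 0.13, 0.10 and 0.12.

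The genes of collagen folding and modification moved in both directions. *PLOD2* (ENSG00000152952, chr3:146035139-146163725) codes for the lysyl hydroxylase of the collagen telopeptides, which sets the type of cross-link. It had 102, 117 and 130 CPM in siNT and 184, 183 and 236 CPM in siLTBP2. Every siLTBP2 library was above every siNT library, a rise of 72.2% (log2 fold change 0.78, SE 0.12, adjusted p = 0.0017). The other lysyl hydroxylases *PLOD1* and *PLOD3* had overlapping groups and log2 fold changes of -0.01 and 0.07, each with an SE near 0.10.

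The prolyl isomerases *FKBP10* and *FKBP14*, which act on procollagen in the ER, fell. *FKBP10*, whose protein FKBP65 assists the PLOD2 enzyme, had 282, 263 and 264 CPM in siNT and 222, 220 and 174 CPM in siLTBP2, a log2 fold change of -0.40 (SE 0.11, adjusted p = 0.024). *FKBP14* had 87.1, 94.4 and 83.8 CPM in siNT and 65.3, 68.6 and 77.2 CPM in siLTBP2, a log2 fold change of -0.33 (SE 0.09, adjusted p = 0.029). Neither gene had overlapping groups. *FKBP10* and *PLOD2* therefore changed in opposite directions.

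*SERPINH1* codes for HSP47, the chaperone of the collagen triple helix. Its levels were 377, 323 and 304 CPM in siNT and 446, 376 and 353 CPM in siLTBP2. The groups overlapped, and the log2 fold change of 0.23 (SE 0.12, adjusted p = 0.21) did not pass the test, but the gene was called with the replicate block (adjusted p = 0.015). The members of the prolyl 3-hydroxylation complex, *P3H1*, *CRTAP* and *PPIB*, had log2 fold changes of 0.33, 0.06 and 0.22, with adjusted p = 0.062, 0.70 and 0.21. *P3H1* and *PPIB* were called with the replicate block (adjusted p = 4e-04 and 0.021). On the other strand, exons of *SNX22* cover 26.6% of the exon bases of *PPIB*, and exons of *ATP6V1C2* cover 25.2% of those of *PDIA6*.

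The 3 genes of export from the ER were not called, by the likelihood ratio test and DESeq2 as well, and 1 had an unadjusted p under 0.05. *SEC23A* and *SEC24D* code for parts of the COPII coat and *MIA3* for TANGO1, the receptor that loads collagen into carriers. *SEC24D* was lower in every siLTBP2 library (178, 178 and 170 CPM, against 219, 196 and 197), with a log2 fold change of -0.22 (adjusted p = 0.094, and 0.018 with the replicate block). *MIA3* had a log2 fold change of 0.20 (adjusted p = 0.22, and 0.028 with the replicate block) and *SEC23A* one of -0.07 (adjusted p = 0.63).

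Of the 10 genes called, *CREB3L1*, *XBP1*, *PLOD2*, *ERN1*, *CHAC1* and *MANF* were called with each of the 6 libraries left out in turn, and the other 4 were not. The call of *CANX* was lost without siNT 2, siNT 3, siLTBP2 1 or siLTBP2 2 (log2 fold changes 0.32, 0.38, 0.34 and 0.38), and that of *EDEM1* without siNT 1, siNT 2 or siLTBP2 2 (0.39, 0.32 and 0.40). The call of *FKBP10* was lost without siNT 1, siNT 2, siNT 3 or siLTBP2 3 (-0.37, -0.41, -0.41 and -0.29). That of *FKBP14* was lost without siNT 1, siNT 2, siLTBP2 1 or siLTBP2 2 (-0.35, -0.28, -0.28 and -0.32).

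**Figure D3:**
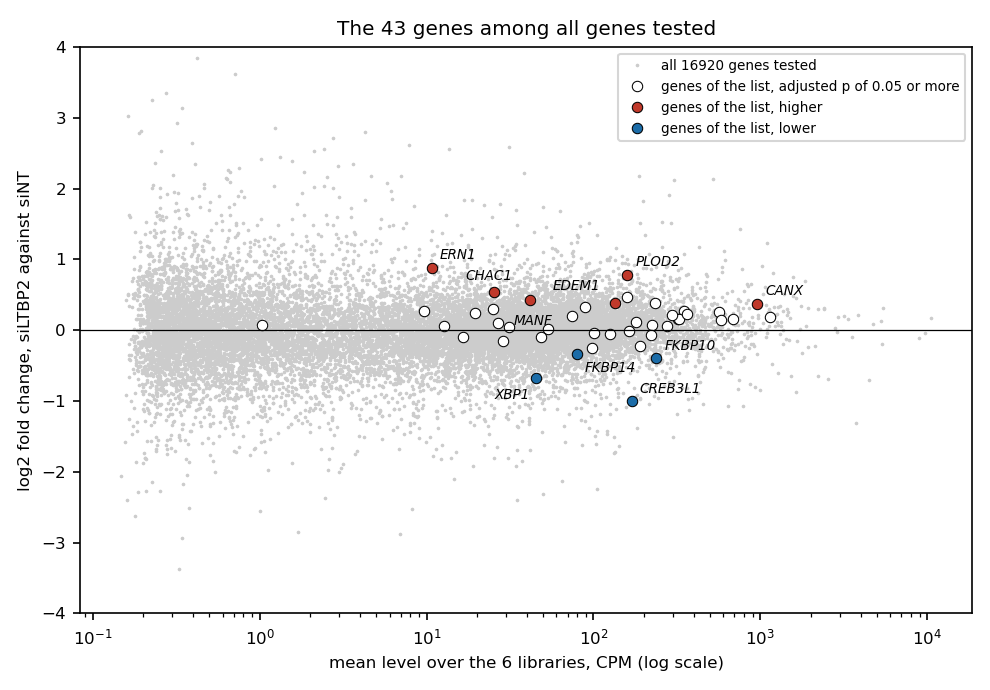
Log2 fold change of siLTBP2 against siNT (vertical axis) against the mean level over the 6 libraries in CPM (horizontal axis, log scale) for all 16920 genes tested (grey) and for the 43 genes (circles). The 6 genes that rose are red, the 4 that fell are blue, and the remaining 33 circles are white and lie within the cloud of all genes.

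Compared per kb of the canonical transcript, the listed genes spanned a wide range of levels. *CALR* was the highest in siNT (563 ± 40.1 CPM per kb, SD, n = 3), followed by *PPIB* (306 ± 30.4), *P4HB* (267 ± 16.5), *HSP90B1* (199 ± 8.22) and *CANX* (169 ± 10.7). The lowest were *EIF2AK3* (3.94 ± 0.51), *ERN1* (0.95 ± 0.20) and *ASNS* (0.42 ± 0.058). Of the 42 pairs of neighbours in this order, 31 had overlapping siNT libraries and their order is not fixed by these data. Chaperones and isomerases took the top of the order, but the chaperones *DNAJC3*, *DNAJB11*, *SDF2L1* and *DNAJB9* stood at ranks 27, 31, 32 and 40. The sensors *ATF6*, *EIF2AK3* and *ERN1* stood at ranks 34, 41 and 42, above *ASNS* at 43. After siLTBP2, *CREB3L1* went from rank 12 to rank 21, *FKBP14* from 28 to 33 and *XBP1* from 23 to 26, while *PLOD2* went from 22 to 17 and *CHAC1* from 35 to 25. Reads were counted over all annotated exons of a gene, so a gene with many long transcripts has too high a level per kb.

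**Figure D4:**
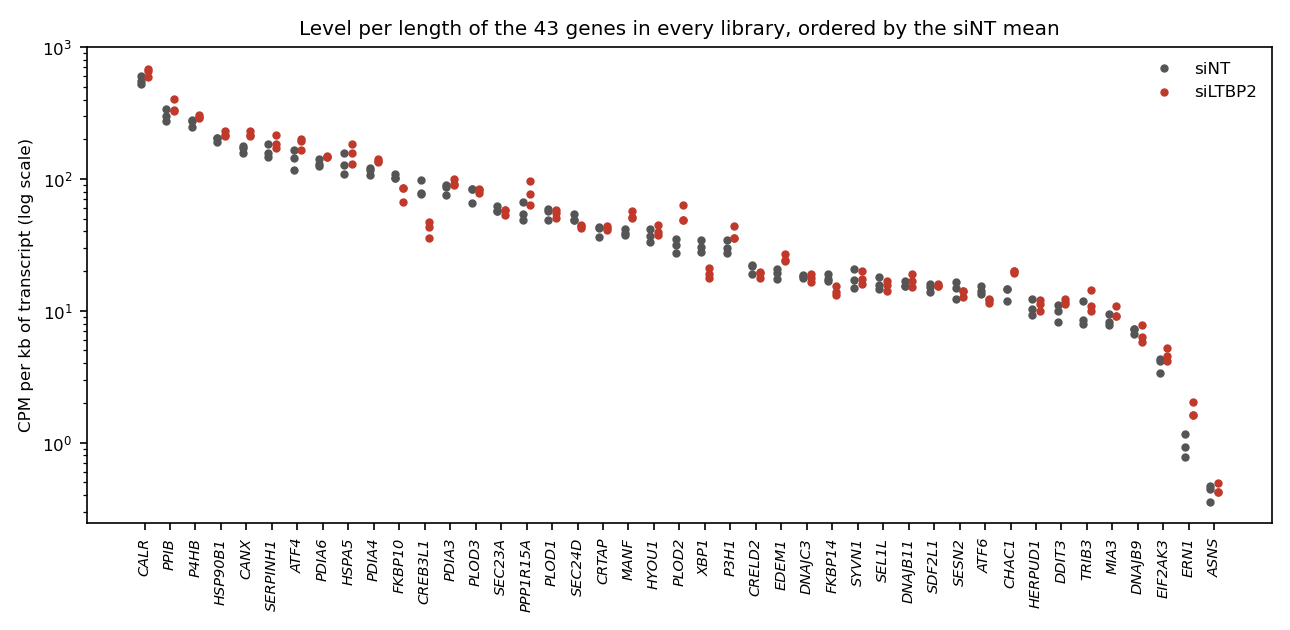
Level of each of the 43 genes in CPM per kb of the canonical transcript (log scale), for the 3 siNT libraries (grey) and the 3 siLTBP2 libraries (red), in the order of the siNT mean. The order runs from *CALR* to *ASNS*, and the red points of *CREB3L1* and *XBP1* stand below the grey ones and those of *PLOD2* and *ERN1* above.

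Related genes outside the 43 were counted in lists of the same pathways. Of all genes tested, 9.76% were called higher and 9.51% lower (18.4% and 17.9% with the replicate block). Of 23 other ER chaperones and folding enzymes, 5 rose and 2 fell (10 and 2 with the replicate block). The oxidase *ERO1A*, which recharges the isomerases, rose in all 3 libraries (143, 139 and 148 CPM in siNT, 218, 213 and 215 in siLTBP2, log2 fold change 0.59, SE 0.08, adjusted p = 0.00062). The isomerases *ERP44* and *TMX3* fell (log2 fold changes -0.41 and -0.35, adjusted p = 0.008 and 0.016). Of 20 other genes of ER-associated degradation, 3 rose and 1 fell (9 and 1 with the replicate block), among them *EDEM3*, the relative of *EDEM1* (log2 fold change 0.76, SE 0.09, adjusted p = 0.00035) and *DERL3*, which fell but stood under 1 CPM (-0.99, adjusted p = 0.028). Exons of *SMARCB1* on the other strand cover 77.0% of the exon bases of *DERL3*, so its count is uncertain. Of 16 other sensors, proteases and factors, 3 rose and 1 fell (7 and 2 with the replicate block). *EIF2AK4*, the GCN2 kinase that senses uncharged tRNA, rose (0.39, adjusted p = 0.0089), and *EIF2AK2*, the PKR kinase, fell (-0.38, adjusted p = 0.012).

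The other ATF4 and CHOP targets did not share a direction, with 2 of 30 higher and 3 lower (6 and 9 with the replicate block). Of these, *SARS1*, seryl-tRNA synthetase, fell from 144, 117 and 141 CPM to 55.8, 61.1 and 57.7 CPM (log2 fold change -1.21, SE 0.10, adjusted p = 4.9e-05). *VLDLR*, a lipoprotein receptor, rose from 2.77, 2.37 and 3.58 CPM to 6.86, 7.57 and 6.68 CPM (1.27, SE 0.17, adjusted p = 0.00075). The median log2 fold change of the 30 was -0.05, against 0.28 for the 6 listed genes of the arm. Of 13 other genes of collagen modification, 3 rose and none fell (4 and 2 with the replicate block). The 3 were the catalytic subunits of prolyl 4-hydroxylase, *P4HA1* (0.37, adjusted p = 0.012), *P4HA2* (0.34, adjusted p = 0.028) and, under 1.1 CPM in every library, *P4HA3* (1.05, adjusted p = 0.017). Their shared subunit is *P4HB*, which is on the list and was not called (0.15, SE 0.09, adjusted p = 0.29).

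Of 34 other genes of the COPII coat and of export, 5 rose and 2 fell (8 and 2 with the replicate block). *SSR3*, a subunit of the translocon-associated complex, rose (0.66, adjusted p = 0.0014), as did the cargo receptor *SURF4* (0.47, adjusted p = 0.003), and the coat gene *SEC24C* fell (-0.52, adjusted p = 0.007). Exons of other annotated genes on the other strand cover 42.8% of the exon bases of *SEC24C* and 20.8% of those of *SSR3*. Heat shock genes of the cytosol and mitochondria, with 18 tested, gave 1 call, *TRAP1*, which fell (-0.33, adjusted p = 0.038). Exons of *DNASE1* on the other strand cover 28.5% of the exon bases of *TRAP1*. With the replicate block the heat shock list gave 8 calls, 6 higher and 2 lower. None of the 7 fibrillar collagen genes was called, by the likelihood ratio test and DESeq2 as well, and 1 had an unadjusted p under 0.05. Their log2 fold changes ran from -0.37 to 0.41, with a median SE of 0.20. With the replicate block 4 of the 7 were called, *COL1A2* and *COL5A2* higher (0.29 and 0.37, adjusted p = 0.0041 and 0.00018) and *COL1A1* and *COL3A1* lower (-0.23 and -0.41, adjusted p = 0.023 and 0.00018).

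**Figure D5:**
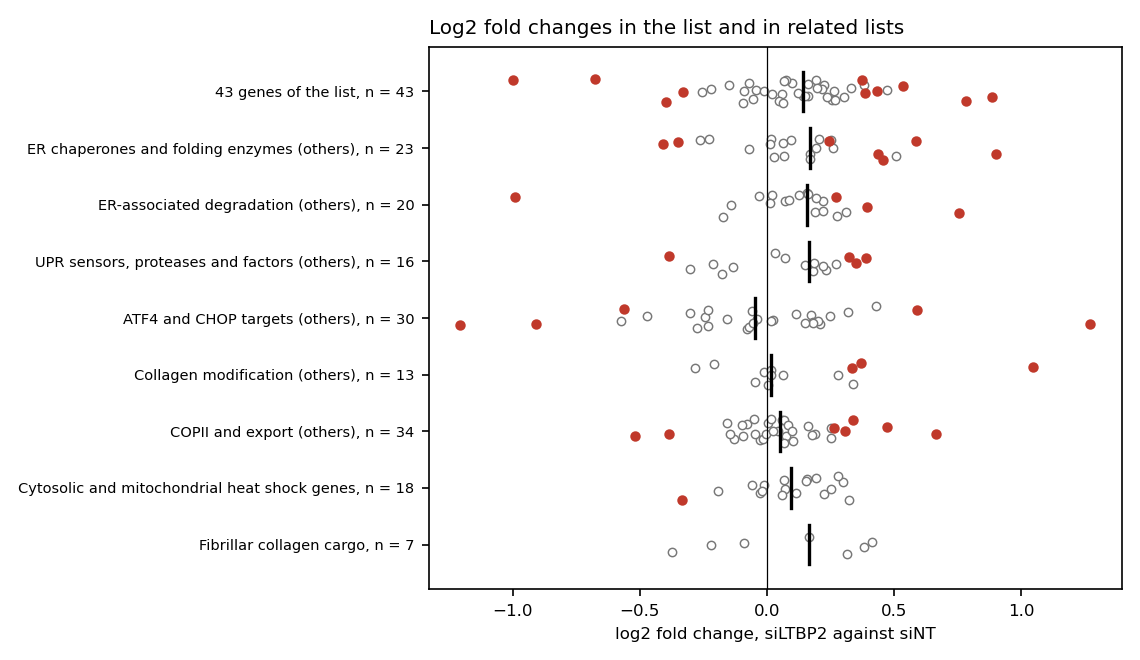
Log2 fold changes of siLTBP2 against siNT in the 43 genes and in the related lists, with 1 point a gene, red where the adjusted p was below 0.05, and a black line at the median. Medians lie between -0.05 for the other ATF4 and CHOP targets and 0.17 for the other ER chaperones, against -0.01 over all genes tested.

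A 3′ UTR word, GCACCCA, had been found in an earlier analysis of these same counts to be carried more often by genes that fell. It was counted in canonical 3′ UTRs of GENCODE 44 as a description. It was carried by 1455 of 12312 tested genes with a 3′ UTR (11.8%) and by 3 of the 43 genes (6.98%). The sites, each 29 bases with the word in capitals, are shown because 1 of them lies in *CREB3L1*, the gene that fell furthest.
CREB3L1, 3′ UTR, chr11:46321037-46321065, plus strand: cccccacacctGCACCCAaacagacacat
HERPUD1, 3′ UTR, chr16:56944747-56944775, plus strand: tgtgagccaccGCACCCAgccagggacta
CRTAP, 3′ UTR, chr3:33143299-33143327, plus strand: taccaattctaGCACCCActgaaaaacaa
Of the 4 genes that fell, *CREB3L1* was the only carrier. Among all tested genes with a 3′ UTR, the word was carried by 400 of the 1412 called lower and by 98 of the 1479 called higher. A single carrier among 4 genes thus does not stand apart from all genes called lower. The other carriers *HERPUD1* and *CRTAP* had log2 fold changes of 0.05 and 0.06. The part of the word in the change of *CREB3L1* was not tested.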

How the data were processed

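RNA from 6 CCD18Co libraries (3 siNT and 3 siLTBP2) was sequenced in stranded libraries. The authors aligned the reads to GRCh38 with STAR 2.7.1a in 2 passes and deposited unnormalised gene counts made with HTSeq 0.11.2. Versions come from the submitters' processing notes, and neither the annotation release nor the strand setting of the counting was stated there or in the methods. The 43 genes and the other lists were chosen with earlier results of these data known.

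From the deposited counts, genes were filtered with filterByExpr and scaled by TMM, and siLTBP2 was compared with siNT over all 6 libraries by edgeR 4.0.16 (glmQLFit and glmQLFTest, two-sided, R 4.3.3). P-values were adjusted by Benjamini-Hochberg over all 16920 genes tested. A gene was called at an adjusted p below 0.05. The likelihood ratio test that the study names, DESeq2 1.42.0, other scalings and filters, the replicate number as a block and leaving out each library were alternatives. The fits were tested on simulated data with the same dispersion for every gene, few changed genes and no replicate effect. Error rates in the real libraries may therefore differ from those of the simulation. In the simulation, DESeq2 made false calls above its nominal rate, which the quasi-likelihood test did not. DESeq2 also missed a first limit on the share of changed genes recovered, which was then set over genes above 1 CPM. DESeq2 counts are to be read with this limit.

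Every listed gene is accounted for. Values in every library are given for called genes and for *HSPA5*, *XBP1*, *ATF4*, *DDIT3*, *SERPINH1* and *CREB3L1*. Of each other list, genes that met the study's limits (adjusted p under 0.01, more than 2-fold) are named, or otherwise up to 3 genes of lowest p. The values of 1 gene that this rule names are not reported here. Other names (*ATF6*, *PDIA4*, *PPP1R15A* and *SEC24D* with library values, and *CREB3L2* and the collagen prolyl hydroxylases beside their relatives) were chosen after their values were seen or follow this rule.

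Same-numbered libraries were taken to be paired because their deviations from the group means, on the log2(CPM + 0.5) scale, correlated above 0.1 in each of the 3 pairs (0.44, 0.19 and 0.57). Pairs of unlike number ran from -0.50 to 0.07 on that scale. On edgeR's log-CPM scale 1 of the 3 fell below that limit (0.30, 0.08 and 0.43). There siNT 2 with siLTBP2 1 reached 0.103, above the 0.083 of the libraries numbered 2. Over the 43 genes alone, on the log2(CPM + 0.5) scale, the libraries numbered 2 gave 0.16, below siNT 1 with siLTBP2 2 (0.22). The number 2 was thus not set apart as a pair in these values. The first scale was the one computed first, with earlier results of these data known, and the choice between the scales was reviewed with the blocked calls in view, so the pairing is borderline. The labels give only the number, and the fit without the block stays the main one. Chi-square values per degree of freedom between libraries of 1 group were 24.6 to 48.1, so the libraries differed beyond sampling noise. Sequences come from RefSeq (GRCh38.p14) and from GENCODE 44 on GRCh38, whose gene starts equal those of the counts table for 40 of the 43 genes.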

Additional observations from a re-analysis of the deposited data

How the results depend on the processing

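The log2 fold change of *LTBP2* kept its direction and call under all alternatives (-1.89 to -1.61 with a library left out). The count of 10 called genes was 10 to 15 under the other tests, scalings and filters, and 7 to 10 with each library left out. It was 6 at an adjusted p below 0.01, 23 with the replicate block and 24 with the likelihood ratio test and the replicate block. Genes called higher, 6 in the main fit, numbered 10 by the likelihood ratio test and by DESeq2, 17 with the replicate block, 18 with that block and the likelihood ratio test, and 4 to 7 with each library left out. Genes called lower, 4 in the main fit, numbered 2 to 3 with each library left out, 2 without siNT 1. The count of deregulated genes, 0 in the main fit, became 1 after scaling by upper quartiles or by total counts, and with either other filter (none, or 1 CPM in 3 libraries), each time *CREB3L1*, whose log2 fold change lies at the limit. It was 0 to 2 with each library left out, where *ERN1* (1.06) joined *CREB3L1* (-1.05) without siNT 3. The blocked fit kept all 10 calls and added 13, of which 11 were higher and 2 lower, and with it more of all genes were called too (36.2%, against 19.3%). Since 1 of 2 scales puts a pair below the limit for pairing, these added calls rest on a pairing that the labels do not give. Over 645 values of single genes, 562 kept direction and call, 53 gained a call, 15 lost it and 15 changed sign, and none of these 15 values belonged to a called gene. The sign changed for *SYVN1* with total counts (-0.013), and with a library left out for *SYVN1* (-0.088 to 0.158), *DNAJC3* (-0.088 to 0.0066), *SEL1L* (-0.115 to 0.029), *HERPUD1* (-0.039 to 0.159), *ASNS* (-0.033 to 0.156), *PLOD1* (-0.094 to 0.042), *PLOD3* (-0.040 to 0.122) and *CRTAP* (-0.0087 to 0.101).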
